A study of Mus musculus with 12 samples.

Results

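The genes described here are 9 enzymes of myelin galactolipid and ceramide metabolism, taken from the deposited gene table by their symbols. They are Ugt8a, Fa2h and Gal3st1, which build galactolipids, Sptlc1, Sptlc2, Cers2 and Degs1, which build ceramide, and Galc and Aspa, which break down galactolipid and release acetate. All 9 were among the 24060 genes of the table, and all 9 passed the filter on low counts that 14354 genes passed.

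RNA came from brain white matter of 6 male Tie2-Cre:Rpl22-HA mice. Of these, 3 (animals 489, 555 and 556) ate a chow with 10% of its energy as fat (CFD), and 3 (animals 516, 517 and 676) ate one with 60% (HFD), the model of diet-induced obesity. Every animal, controls included, carried Cre under the Tie2 (Tek) promoter and a ribosomal protein, Rpl22, that gains an HA tag where Cre acts, so the groups differed in diet and not in genotype. Tie2-Cre marks endothelial cells and also a part of the blood lineage, and the age of the sequenced animals is not given in the sources used here. Each animal gave a library of RNA pulled down with anti-HA (IP) and a library of the whole white matter lysate (input), which made 4 groups of 3 libraries.

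Myelin is unusually rich in galactosylceramide and in its sulphated form, sulfatide. Oligodendrocytes make them from ceramide, much of which carries very long or hydroxylated fatty acids, and loss of single enzymes of this route causes disorders of myelin. In the adult brain most of these galactolipid enzymes are known from oligodendrocytes, while ceramide synthesis itself takes place in every cell type.

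The 12 libraries held 19567186 to 33660708 counts. Rn45s, the ribosomal RNA precursor, took 38.7% to 42.3% of counts in CFD IP, 17.1% to 19.1% in HFD IP and 6.34% to 14.2% in the inputs, and without it and Lars2 none of the fitted values of the 9 genes changed sign or crossed the threshold. Summed over 12 myelin and oligodendrocyte markers, the level was 4438 to 5577 CPM (each count as a share of the TMM-scaled library size) in CFD input, 5649 to 6688 in CFD IP, 3269 to 5062 in HFD input and 3239 to 8191 in HFD IP. Summed over 12 endothelial markers, it was 14.4 to 21.3 CPM in CFD input, 4.11 to 213 in CFD IP, 10.2 to 46.4 in HFD input and 11.5 to 67.2 in HFD IP. Tek itself had 0, 0 and 80 counts in the CFD IP libraries of animals 489, 555 and 556 and 0, 1 and 43 in the HFD IP libraries of animals 516, 517 and 676, against 4, 3 and 0 in CFD input and 13, 0 and 76 in HFD input. Eng had 0 in all CFD IP libraries and Cldn5 had 0 in all CFD input libraries. The mean endothelial sum was higher in IP than in input (74.7 against 17.1 CPM in CFD, 36.3 against 25.2 CPM in HFD), but animals 489, 555 and 676 had less in IP, and in every library it was far below the oligodendrocyte sum. Xist, an RNA of female cells, reached 133 counts in 1 library, the input of HFD animal 676, labelled male, against at most 7 elsewhere. Some results, but not all that rest on that animal, are also given without it. In bulk RNA of this kind, fewer cells of a type and less RNA per cell cannot be told apart.

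Promoter sequences of 8 of the 9 genes were found in RefSeq (GRCm38.p6, the mm10 assembly), Fa2h being the exception. Those of 3 genes are shown because their IP values stood apart in the results that follow: Ugt8a and Gal3st1, whose HFD IP libraries all lay above the CFD IP libraries, and Aspa, whose IP libraries all lay below the inputs. Each is the 250 bases before an annotated start, read 5′ to 3′ on the strand of the gene. For Aspa that start is internal, and the window falls within the gene span given below. The Ugt8a window also reaches into its gene span. Capitals mark exact matches, on either strand, to the letters of a GC box, a CCAAT box, a TATA box or the core of a SOX motif, which are spelled out after the sequences. The window of Ugt8a lies at chr3:125938653-125938902 (minus strand), Gal3st1 at chr11:3983386-3983635 (plus strand) and Aspa at chr11:73324638-73324887 (minus strand).
Ugt8a: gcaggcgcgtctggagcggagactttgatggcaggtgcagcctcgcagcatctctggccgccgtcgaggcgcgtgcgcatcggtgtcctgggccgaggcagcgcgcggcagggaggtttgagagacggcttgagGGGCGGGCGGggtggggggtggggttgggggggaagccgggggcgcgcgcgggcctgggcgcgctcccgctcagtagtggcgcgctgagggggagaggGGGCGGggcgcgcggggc
Gal3st1: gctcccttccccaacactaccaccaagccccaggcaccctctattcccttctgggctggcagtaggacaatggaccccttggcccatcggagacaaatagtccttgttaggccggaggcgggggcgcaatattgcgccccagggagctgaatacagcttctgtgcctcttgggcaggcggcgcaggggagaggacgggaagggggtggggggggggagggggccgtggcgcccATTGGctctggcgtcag
Aspa: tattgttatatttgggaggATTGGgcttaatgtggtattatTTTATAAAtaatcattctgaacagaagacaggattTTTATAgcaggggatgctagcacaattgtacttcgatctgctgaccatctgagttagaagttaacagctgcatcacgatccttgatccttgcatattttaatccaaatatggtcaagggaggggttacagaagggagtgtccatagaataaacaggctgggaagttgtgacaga
The Ugt8a window was 76.8% G and C and held 3 GC box matches, of which a pair overlapped. That of Gal3st1 was 65.6% G and C with 1 CCAAT box match, in the reverse direction. Gal3st1 has other annotated starts whose windows are not shown. The one at chr11:3983401-3983650 overlapped the window shown, and the one at chr11:3989683-3989932 was 56.0% G and C without a match. The Aspa window was 38.8% G and C, below the median of 52.4% over 32851 promoter windows, with 1 CCAAT box match and 3 TATA box matches, a pair of which overlapped on opposite strands. The GC box was searched as GGGCGG, which 32.74% of all windows held on either strand. The CCAAT box, searched by the letters of its name, was held by 33.85% of all windows. The TATA box was searched as TATAAA, which 12.37% of all windows held on either strand. The SOX core was searched as ACAAAG, which 16.46% of all windows held and none of these 3 did. These matches describe letters in a window and say nothing of which factor binds there.

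Levels per length were compared first, as CPM per kilobase of the gene length behind the deposited FPKM. In the 6 input libraries Fa2h was highest, at 23.1 ± 5.04 CPM per kb (SD, n = 6). Aspa followed at 17.6 ± 4.32, Ugt8a at 15.7 ± 7.66, Degs1 at 15.7 ± 7.2 and Cers2 at 10.7 ± 2.9 CPM per kb. Sptlc1, Sptlc2 and Galc stood at 4.97 ± 3.01, 4.3 ± 1.97 and 3.32 ± 1.9 CPM per kb, and Gal3st1 was lowest at 1.35 ± 0.769. All 8 pairs of neighbours in this order overlapped between libraries. In the 6 IP libraries the order began with Fa2h at 54.0 ± 13.4 CPM per kb, whose lowest library (29.5) lay above the highest library of the next gene, Cers2 (24.8). The other 7 pairs of neighbours overlapped, and Gal3st1 was again lowest at 4.47 ± 7.49 CPM per kb.

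**Figure D1:**
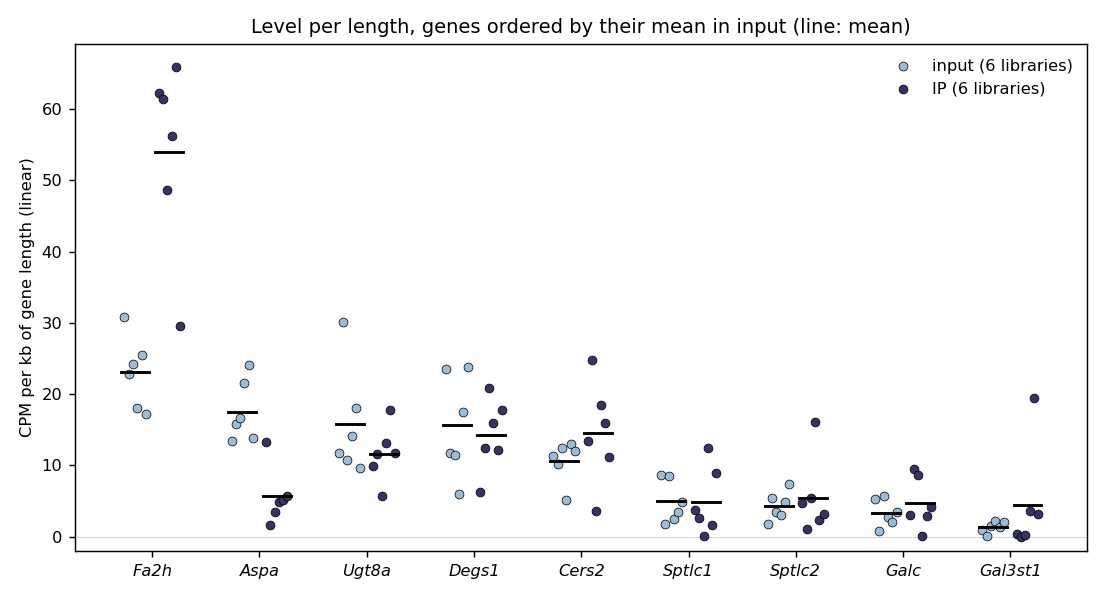
CPM per kb of gene length (linear axis) for the 9 genes, ordered by their mean in input; each point is 1 library (6 input, 6 IP) and each line a mean. Fa2h has the highest mean in both fractions, and its 6 IP libraries, from 29.5 to 65.8 CPM per kb, lie above those of every other gene.

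Ugt8a (chr3:125865272-125938682, minus strand, 6 exons) encodes the enzyme that joins galactose to ceramide, the step that makes galactosylceramide. In input it had 42.1, 108 and 38.6 CPM in CFD animals 489, 555 and 556, and 50.9, 65.1 and 34.8 CPM in HFD animals 516, 517 and 676. In IP it had 35.5, 41.6 and 20.3 CPM in the CFD animals, and 47.4, 63.98 and 42.4 CPM in the HFD animals. The CFD input of animal 555 was the highest library, and the inputs of the diets overlapped. All 3 HFD IP libraries lay above all 3 CFD IP libraries, though the nearest pair, animals 676 and 555, differed by 42.4 against 41.6 CPM. The fitted log2 fold change of HFD IP against CFD IP was 0.66 (SE 0.541, edgeR adjusted p = 0.656). Between IP and input it was -0.96 in CFD (SE 0.543, edgeR adjusted p = 0.487) and 0.03 (SE 0.538) in HFD. On library totals without TMM scaling, the value in CFD was -1.73 (edgeR adjusted p = 0.0767), and that in HFD turned to -0.39. That choice alone shifted all genes by -0.83 in CFD and -0.42 in HFD. Of the 1014 genes called with it in CFD, 997 were lower in IP.

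Fa2h (chr8:111345138-111393821, minus strand, 7 exons) encodes fatty acid 2-hydroxylase, which supplies the hydroxylated fatty acids of myelin galactolipids. It was the gene of the 9 with the steadiest values, with a mean coefficient of variation of 22.4% over the 4 groups. The median over all genes tested was 63.4%, but these were mostly less abundant. Fa2h stood at percentile 86.6 of level, with a mean of 96.1 CPM, and no comparison was made at like level. In input it had 76.9, 56.8 and 60.4 CPM in the CFD animals and 45.0, 63.4 and 43.04 CPM in the HFD animals. The IP levels were 155, 153 and 121 CPM in the CFD animals and 140.0, 164 and 73.5 CPM in the HFD animals. Every IP library lay above the input of its own animal, by 0.77 (animal 676) to 1.64 (animal 516) on the log2 scale. Over all libraries the lowest IP value, 73.5 CPM in HFD animal 676, was still below the highest input value, 76.9 CPM in CFD animal 489.

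Fa2h rose in IP against input over both diets, by 1.23 on the log2 scale or 2.35-fold (SE 0.281 in log2, edgeR adjusted p = 0.0417). It was the only one of the 9 genes that passed an adjusted p of 0.1 in this comparison, which 2.35% of all genes tested did. IP lay above input in 6 of 6 animals for Fa2h, as for 4.09% of all genes. Within CFD the log2 fold change was 1.15 (SE 0.396, edgeR adjusted p = 0.273), and within HFD 1.32 (SE 0.398, edgeR adjusted p = 0.553). DESeq2 gave an adjusted p of 0.0587 in CFD. The call over both diets depended on scaling and on which animal was left out. On library totals the difference was 0.60 (edgeR adjusted p = 0.222), while that choice alone shifted all genes by -0.62. With 1 animal left out the value stayed between 1.14 and 1.32, and the edgeR adjusted p was 0.110 without animal 489, 0.259 without 516, 0.189 without 517, 0.107 without 555, 0.138 without 556 and 0.0370 without 676. Fa2h did not differ detectably between diets, with log2 fold changes of -0.19 (SE 0.391) in IP, or 0.33 on library totals, and -0.36 (SE 0.392) in input.

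**Figure D2:**
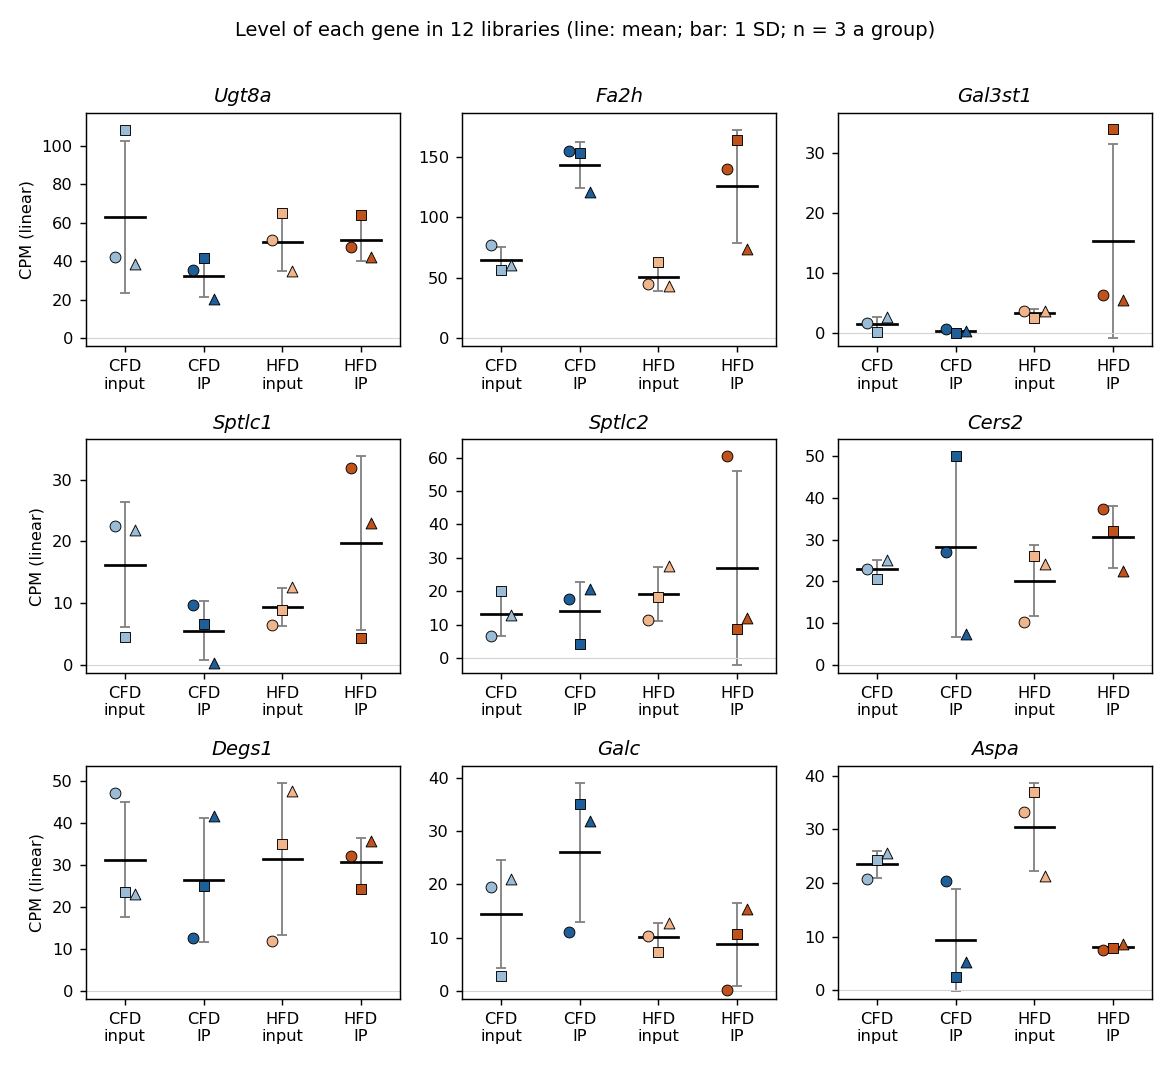
Level of each of the 9 genes in CPM (linear axes) by group; circles are animals 489 and 516, squares 555 and 517, triangles 556 and 676, lines are means and bars 1 SD (n = 3 libraries a group). Fa2h is higher and Aspa lower in IP than in the input of the same diet. Single libraries hold 74.0% and 74.6% of the HFD IP level of Gal3st1 and Sptlc2, and 71.9% of the CFD IP level of Aspa (animal 489). The HFD IP of Galc has a lone low library, at 0.173 CPM (animal 516).

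Gal3st1 (chr11:3983636-3999328, plus strand, 3 to 4 exons) encodes the sulfotransferase that turns galactosylceramide into sulfatide. It was the least abundant of the 9 genes. Its counts were 38, 4 and 71 in the CFD inputs and 135, 67 and 102 in the HFD inputs, or 1.63, 0.141 and 2.59 CPM against 3.75, 2.43 and 3.63 CPM. In CFD IP it had 14, 0 and 6 counts, or 0.724, 0 and 0.336 CPM. In HFD IP it had 184, 1030 and 182 counts, or 6.38, 34.0 and 5.55 CPM, so that animal 517 held 74.0% of the group's summed level. All 3 HFD IP libraries lay above all 3 CFD IP libraries. The fitted log2 fold change of HFD IP against CFD IP was 5.42 (SE 1.88, edgeR unadjusted p of 0.00857, adjusted p of 0.347), and DESeq2 gave an adjusted p of 0.00729. Without animal 517 it was 4.06 (edgeR adjusted p = 0.632), and without animal 676 it was 5.82. In input the log2 fold change between diets was 1.17 (SE 1.57), with overlapping groups.

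In each CFD animal Gal3st1 was lower in IP than in input, by -1.09, -1.53 and -2.7 on the log2 scale in animals 489, 555 and 556. In each HFD animal it was higher in IP, by 0.75, 3.77 and 0.60 in animals 516, 517 and 676. Such an opposite pattern in every animal was met by 1 of the 9 genes and by 2.45% of all genes tested. The difference itself was tested by the interaction of diet and fraction, which was 4.25 (SE 2.3, edgeR unadjusted p of 0.0772, adjusted p of 0.896). The oligodendrocyte marker sum of the library with the most Gal3st1, the IP of animal 517, was also the highest of the 12 libraries, at 8191 CPM. That of the IP of animal 676, with 182 counts of Gal3st1, was the lowest, at 3239 CPM. Divided by this sum, Gal3st1 was higher in all HFD IP libraries than in all CFD IP libraries. That order could not have changed. The sums of the IP libraries, from 3239 to 8191 CPM, differed less than the highest CFD IP and lowest HFD IP values of Gal3st1, 0.724 and 5.55 CPM. The share of all genes without overlap on this scale was not computed. The part of the marker sum in the result was not tested.

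Sptlc1 (chr13:53332748-53377417, minus strand, 15 exons) and Sptlc2 (chr12:87305058-87388355, minus strand, 12 exons) encode the large subunits of serine palmitoyltransferase, which starts the synthesis of all sphingolipids. Sptlc1 had 22.4, 4.44 and 21.8 CPM in CFD input and 6.48, 8.91 and 12.7 CPM in HFD input. In IP it had 9.62, 6.57 and 0.28 CPM in CFD and 31.9, 4.26 and 22.9 CPM in HFD. The lowest value, in the CFD IP of animal 556, rested on 5 counts against 186 and 136 in the other CFD IP libraries, and the IP groups overlapped. Its log2 fold change of HFD IP against CFD IP was 1.84 (SE 1.17, edgeR adjusted p = 0.554), or 1.29 without animal 556.

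Sptlc2 had 6.65, 20.1 and 12.8 CPM in CFD input and 11.5, 18.2 and 27.6 CPM in HFD input. Its IP libraries held 17.6, 4.2 and 20.5 CPM in CFD and 60.5, 8.59 and 11.98 CPM in HFD. The IP of animal 516 held 74.6% of the HFD IP level, and the other HFD IP libraries lay within the range of the CFD IP libraries. The log2 fold change of HFD IP against CFD IP was 0.94 (SE 0.926, edgeR adjusted p = 0.720), and without animal 516 it turned to -0.48.

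Cers2 (chr3:95314771-95323599, plus strand, 11 exons) encodes the ceramide synthase for very long chain fatty acids. It had 22.9, 20.6 and 25.2 CPM in CFD input and 10.3, 26.1 and 24.2 CPM in HFD input. In IP it had 27.1, 50.1 and 7.23 CPM in CFD and 37.3, 32.1 and 22.6 CPM in HFD. The CFD inputs were close together, while the CFD IP libraries spanned a 6.92-fold range that held all HFD IP values. Its log2 fold change of HFD IP against CFD IP was 0.12 (SE 0.738), or -0.33 without animal 556. Exons of Cers2 overlap those of Anxa9, Setdb1 and LOC115489748 on the opposite strand by 100, 75 and 428 bases, and whether counting used strand is not stated, so its counts may include reads of these genes.

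Degs1 (chr1:182275964-182282854, minus strand, 3 exons) encodes the desaturase of the last step of ceramide synthesis. It had 47.3, 23.7 and 23.09 CPM in CFD input and 11.9, 35.0 and 47.7 CPM in HFD input. The IP libraries held 12.6, 24.9 and 41.8 CPM in CFD and 32.1, 24.3 and 35.7 CPM in HFD. All 4 groups overlapped, and the fitted log2 fold changes were 0.22 (SE 0.685) between the IP groups and 0.01 (SE 0.685) between the inputs. IP lay above input in 3 of 6 animals.

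Between IP and input over both diets, the ceramide genes had fitted log2 fold changes within 1 SE of 0. They were -0.24 (SE 0.800) for Sptlc1, -0.14 (SE 0.484) for Degs1, 0.30 (SE 0.650) for Sptlc2 and 0.45 (SE 0.523) for Cers2, and on library totals Sptlc2 and Cers2 turned to -0.39 and -0.16. Between the IP groups all 4 had a fitted value towards HFD, with a median of 0.58 beside 0.03 over all genes tested, and none passed. With 1 animal left out, Sptlc2, Cers2 and Degs1 turned, to as low as -0.48, -0.33 and -0.14, while Sptlc1 did not.

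Galc (chr12:98202287-98259459, minus strand, 17 exons) encodes the lysosomal galactosylceramidase, whose loss causes Krabbe disease. It had 19.5, 2.75 and 21.0 CPM in CFD input and 10.3, 7.42 and 12.7 CPM in HFD input. IP levels were 11.02, 35.1 and 32.0 CPM in CFD and 0.173, 10.8 and 15.4 CPM in HFD. The HFD IP of animal 516 held 5 counts against 327 and 506 in the other HFD IP libraries, and the IP groups overlapped through CFD animal 489. The log2 fold change of HFD IP against CFD IP was -1.56 (SE 1.14, edgeR adjusted p = 0.616), or -1.01 without animal 516 and -2.24 without animal 676. Between IP and input over both diets it was 0.32 (SE 0.790), turning to -0.26 on library totals.

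Aspa (chr11:73304987-73326876, minus strand, 6 exons) encodes aspartoacylase, which cleaves N-acetylaspartate into aspartate and acetate and is deficient in Canavan disease. In input it had 20.7, 24.2 and 25.5 CPM in CFD and 33.2, 37.0 and 21.3 CPM in HFD. In IP it had 20.3, 2.56 and 5.38 CPM in CFD and 7.49, 7.83 and 8.69 CPM in HFD. All 6 IP libraries lay below all 6 input libraries, which held for 0.55% of all genes tested, although CFD animal 489 differed by only -0.03 on the log2 scale. In the other 5 animals the difference ran from -1.28 to -3.2. No member showed the opposite, all IP libraries above all inputs, which 0.752% of genes did, and IP below input in 6 of 6 animals was met by 1 of the 9 genes, Aspa, and by 4.15% of all genes.

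The fitted log2 fold change of Aspa between IP and input over both diets was -1.62 (SE 0.617, edgeR unadjusted p of 0.0153, adjusted p of 0.224). DESeq2 gave an adjusted p of 0.0408, and on library totals the value was -2.22 (edgeR adjusted p = 0.0437). The choice of library totals alone shifted all genes by -0.62, and 1111 of the 1139 genes called with it were lower in IP. With TMM and without animal 489 the value of Aspa was -2.3 (edgeR adjusted p = 0.163). Between diets the log2 fold change was -0.24 (SE 0.853) in IP, or 0.33 on library totals and 0.99 without animal 489, and 0.38 (SE 0.852) in input. Exons of Aspa and of Spata22, on the opposite strand, share 251 bases.

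**Figure D3:**
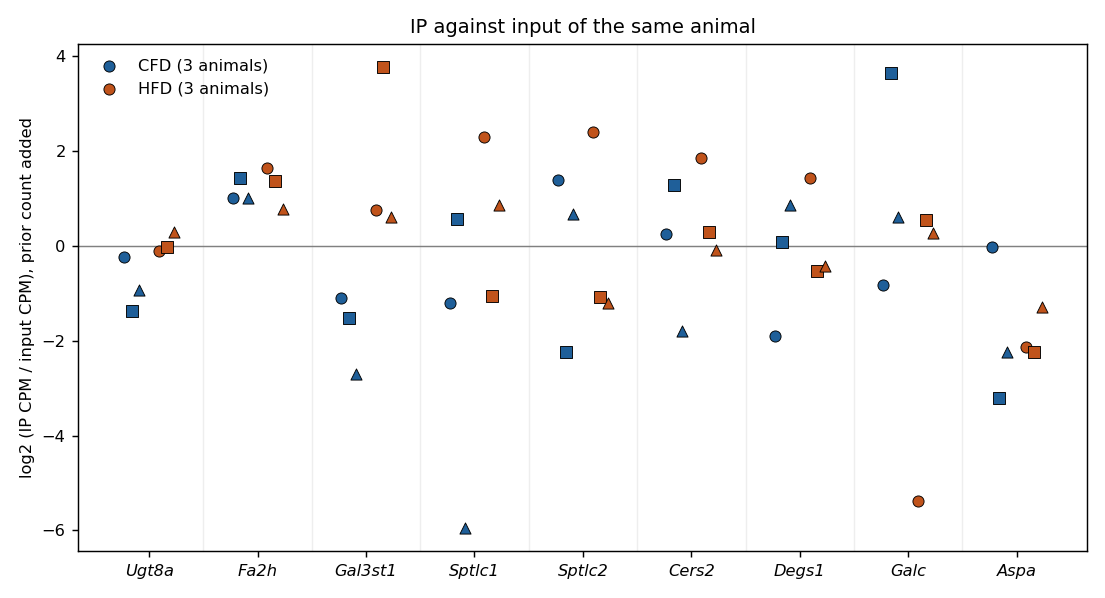
Log2 ratio of IP to input CPM of the same animal (prior count of 2 added) for the 9 genes; blue points are the 3 CFD animals and orange points the 3 HFD animals, with the same symbols for animals as in the plot of levels. The 6 points of Fa2h lie above 0, those of Aspa below 0, and those of Gal3st1 on opposite sides of 0 for the diets; on library totals without TMM the fitted differences of all genes shift by -0.83 in CFD and by -0.42 in HFD.

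Across the 9 genes, the comparisons gave few calls. Between HFD IP and CFD IP, the comparison at the centre of the study, 0 of the 9 genes had an edgeR adjusted p under 0.1, against 0.0557% of all genes tested, while DESeq2 called 1 of the 9, Gal3st1, and 5.58% of all genes. At an unadjusted p under 0.05 there was 1 of 9 in the edgeR test, again Gal3st1, against 10.9% of all genes. Groups that did not overlap, with HFD IP higher, were found for 2 of the 9 genes, Ugt8a and Gal3st1, against 5.94% of all genes, and with HFD IP lower for 0 of the 9, against 4.66%. The median log2 fold change of the 9 genes was 0.22, with 6 above 0 and 3 below, beside 0.03 over all genes tested.

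In whole white matter, HFD input against CFD input called 0 of the 9 genes with edgeR, as it called 0.0% of all genes, and DESeq2 called 0 of the 9 and 0.225% of all genes. None of the 9 had an unadjusted p under 0.05, against 2.03% of all genes. The input groups of the diets overlapped for all 9 genes, while HFD input lay wholly above CFD input for 6.05% of all genes and wholly below for 4.33%. The fitted log2 fold changes ran from -0.80 (SE 1.14) for Sptlc1 to 1.17 (SE 1.57) for Gal3st1, with a median of -0.18. For Ugt8a the interval of plus or minus 2 SE ran from -1.4 to 0.75, and for Fa2h from -1.14 to 0.42, so that changes of this size could not be seen with 3 animals a group.

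Between IP and input, 0 of the 9 genes were called by edgeR in CFD, against 0.188% of all genes, and 0 in HFD, against 0.0139%. DESeq2 called 1 of the 9 in CFD, Fa2h, beside 5.91% of all genes, and 0 in HFD, beside 1.16%. Over both diets it called 2 of the 9, Fa2h and Aspa, beside 7.22% of all genes. At an unadjusted p under 0.05 in the edgeR test there was 1 of 9 in CFD (Fa2h), against 11.8% of all genes, and 2 of 9 in HFD (Fa2h and Aspa), against 6.51%. Over both diets there were again 2 of 9, Fa2h and Aspa, against 13.9%. The median log2 fold change over both diets was 0.10 for the 9 genes and -0.03 for all genes tested. For the interaction of diet and fraction, edgeR called 0 of the 9 genes and 0.0% of all genes, and none of the 9 had an unadjusted p under 0.05, against 5.36%. DESeq2 also called 0 of the 9, beside 0.877% of all genes, and 1 of the 9, Gal3st1, had an unadjusted p under 0.05 there (DESeq2 unadjusted p of 0.0277).

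**Figure D4:**
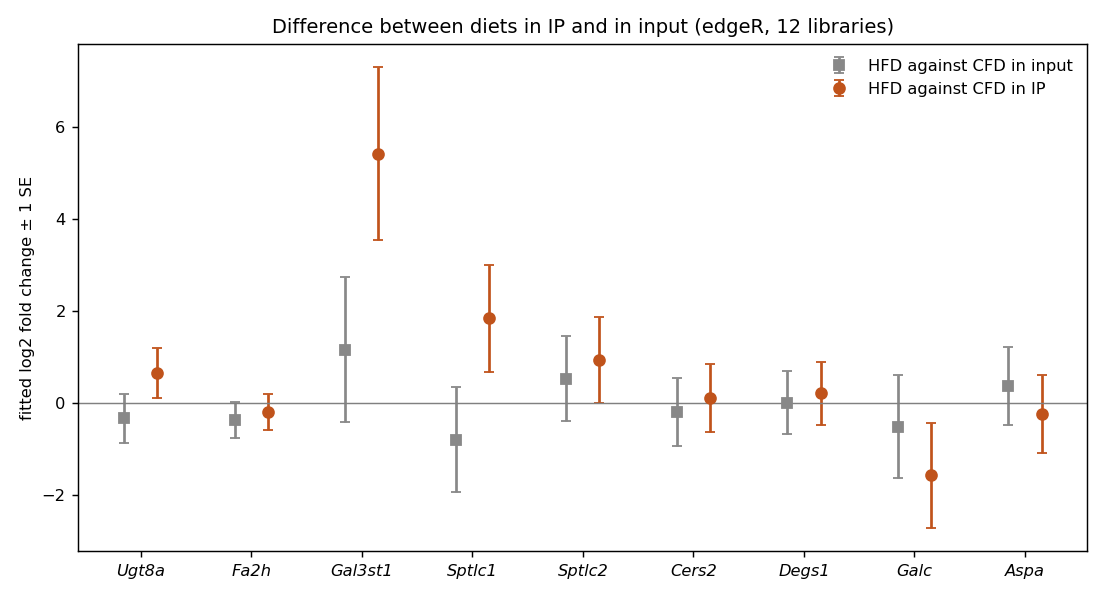
Fitted log2 fold change of HFD against CFD for each of the 9 genes, in input (grey squares) and in IP (orange circles), with bars of 1 SE (edgeR, 12 libraries). None passed an adjusted p of 0.1 in either fraction; Gal3st1 in IP, at 5.42, is the highest value and Galc in IP, at -1.56, the lowest, and on library totals without TMM the values in IP shift by 0.56, which turns those of Fa2h and Aspa to 0.33.

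Ratios of 2 genes within a library do not depend on library scaling. The counts of Fa2h over those of Ugt8a were 1.83, 0.524 and 1.57 in CFD input and 0.884, 0.974 and 1.24 in HFD input. In IP they were 4.38, 3.68 and 5.97 in CFD and 2.95, 2.56 and 1.74 in HFD. In 6 of 6 animals the IP ratio exceeded the input ratio, by 1.6 ± 0.774 on the log2 scale (SD, n = 6). The exact permutation p, two-sided, was 0.03125, the smallest that 6 pairs can give, and 0.281 after Benjamini-Hochberg adjustment over 9 tests. Within IP it was lower in HFD than in CFD without overlap, by -0.96, with an exact permutation p of 0.1, the smallest that 3 animals against 3 allow, and an adjusted value of 0.45. Neither difference passed the correction. Without animal 676, which had the lowest IP ratio, the difference between the diets within IP was -0.74. Ugt8a alone also did not overlap between the IP groups. The share of all gene pairs that met either pattern was not computed.

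Galc over Ugt8a, breakdown against synthesis of galactosylceramide, was 0.464, 0.0254 and 0.544 in CFD input and 0.202, 0.114 and 0.366 in HFD input. In IP it was 0.31, 0.844 and 1.57 in CFD and 0.00366, 0.169 and 0.364 in HFD. The log2 difference of HFD IP from CFD IP was -3.61, with an exact permutation p of 0.2. The difference was -1.59 without animal 516 and -4.91 without animal 676. Sptlc2 over Sptlc1, the ratio of partner subunits, ran from 0.297 to 4.52 in CFD input and from 1.77 to 2.18 in HFD input. In IP it ran from 0.64 to 73.2 in CFD, the highest value resting on the 5 Sptlc1 counts of animal 556, and from 0.523 to 2.02 in HFD. None of its exact permutation p-values was below 0.4.

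**Figure D5:**
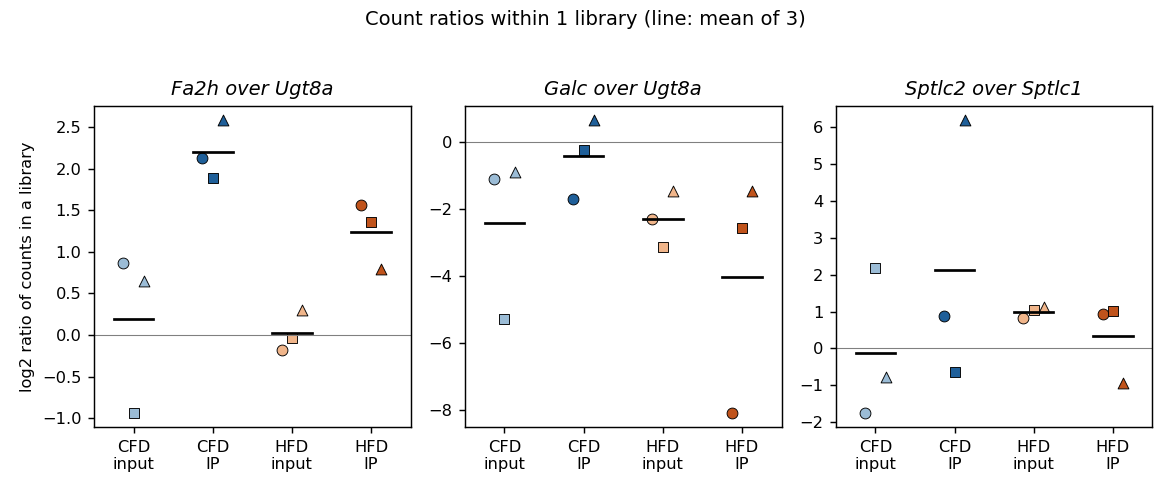
Log2 ratio of the counts of gene pairs within each library, by group, with the same symbols for animals as in the plot of levels and lines for the mean of 3 libraries. Fa2h over Ugt8a lies higher in IP than in input in both diets, whereas the other ratios spread widely, with lone libraries of Galc in HFD IP and of Sptlc1 in CFD IP at the extremes.

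The genes were then set beside the myelin markers of the same library. Fa2h per summed oligodendrocyte marker level was higher in IP in 6 of 6 animals, by 0.84 ± 0.329 on the log2 scale (SD, n = 6). Aspa on this scale was lower in IP in 6 of 6 animals, by -2.21 ± 1.04. Ugt8a was lower in IP in 5 of 6 animals, since IP exceeded input in 1, with a mean of -0.76 ± 0.577. The other 6 genes split in direction between animals, with IP higher in 2 or 3 of 6. The marker sum was itself higher in IP than in input in each animal but 676, which lowers the IP value of any gene on this scale. The share of all genes that met these counts on this scale was not computed. The oligodendrocyte markers themselves did not move as one. Over both diets 9 of the 12 had a fitted value towards IP and 3 towards input, with a median log2 fold change of 0.42, which is smaller than the shift of -0.62 on library totals. Mbp, a main protein of myelin, rose by 0.73 (SE 0.207, edgeR adjusted p = 0.0879), and Ermn, a cytoskeletal protein of myelinating cells, fell by 1.21 (SE 0.294, edgeR adjusted p = 0.0548).

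Markers of other cell types were counted in the same comparison of IP with input over both diets. Of the endothelial markers 11 of 12 were tested, 4 had a fitted value towards IP and 7 towards input, none passed the edgeR adjusted p or an unadjusted p under 0.05, and the median log2 fold change was -0.34. None of the 7 oligodendrocyte progenitor (OPC) markers, the 8 astrocyte markers or the 8 microglia markers passed, with medians of 0.69, 0.23 and 0.17, while 2, 1 and 0 of them had an unadjusted p under 0.05. Of 8 neuron markers 1 passed, Slc17a7, a vesicular glutamate transporter, at 1.01 (SE 0.233, edgeR adjusted p = 0.0444), with a median of 0.17. Between HFD IP and CFD IP no marker of any of these lists passed, and the medians were 0.39 for the oligodendrocyte, 0.21 for the OPC, 1.38 for the endothelial, -0.26 for the astrocyte, 0.61 for the microglia and 0.02 for the neuron list. In the same order 1, 1, 2, 2, 0 and 0 markers had an unadjusted p under 0.05. Summed levels in IP ran from 325 to 583 CPM for OPC, 3987 to 10038 for astrocyte, 85.1 to 306 for microglia and 5294 to 10188 for neuron markers. Their part in the values of the 9 genes was not tested.

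Other genes of sphingolipid and acetate metabolism were called by edgeR only between IP and input over both diets, all higher in IP. In that comparison 2.35% of all genes tested passed. An unadjusted p under 0.05 in the edgeR test was met by 10.9% of all genes between the IP groups and by 13.9% between IP and input. Of 15 other genes of de novo ceramide synthesis, 13 were tested and none passed in any edgeR comparison. Between the IP groups 7 had a fitted value towards HFD and 5 towards CFD (median 0.17), with 2 at an unadjusted p under 0.05, and between IP and input 3 lay towards IP and 10 towards input (median -0.31), with 1. Cers6, another ceramide synthase, had the smallest p towards HFD between the IP groups, with a log2 fold change of 1.18 (SE 0.497, edgeR adjusted p = 0.404). Elovl7, a fatty acid elongase, had the smallest p towards CFD, at -1.44 (SE 0.904, edgeR adjusted p = 0.551). Between IP and input the smallest p towards IP belonged to Cers4, a ceramide synthase, at 0.85 (SE 0.499, edgeR adjusted p = 0.481). The smallest p towards input belonged to Cers3, at -7.67 (SE 2.39, edgeR adjusted p = 0.134). Cers3 had 0 counts in all 6 IP libraries, and so passed the filter on low counts only through its inputs. Its mean was 1.7 ± 2.02 CPM in CFD input, where animal 556 had 108 counts, and 0.529 ± 0.685 CPM in HFD input (SD, n = 3 each).

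Of 10 other genes of lysosomal sphingolipid breakdown, 1 passed. Their median log2 fold change was 0.39 between IP and input, with 7 of 10 towards IP, and 0.53 between the IP groups, with 7 of 10 towards HFD. Psap, the precursor of the saposins that help lysosomal hydrolases reach their lipids, had 260 ± 12.99 CPM in CFD input and 458 ± 114 in CFD IP, and 211 ± 44.9 in HFD input and 377 ± 54.2 in HFD IP (SD, n = 3 each). It rose in IP by 0.83 (SE 0.208, edgeR adjusted p = 0.0617). Asah1, acid ceramidase, had the smallest p towards input, at -0.68 (SE 0.669). Between the IP groups, Glb1, lysosomal beta-galactosidase, had a log2 fold change of 4.34 (SE 1.55, edgeR adjusted p = 0.358), with 1.1 ± 1.06 CPM in CFD IP and 22.4 ± 26.8 CPM in HFD IP (SD, n = 3 each). Psap had the smallest p in the other direction there, at -0.28 (SE 0.292).

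Of 18 genes of other ceramide routes, 17 were tested and 2 passed. Their medians were 0.07 between IP and input, with 9 of 17 towards IP, and 0.34 between the IP groups, with 10 of 17 towards HFD. Smpd3, neutral sphingomyelinase, rose in IP by 1.19 (SE 0.312, edgeR adjusted p = 0.0753), and B4galnt1, a ganglioside synthase, by 0.98 (SE 0.284, edgeR adjusted p = 0.0968). Col4a3bp, the ceramide transfer protein, had the smallest p towards input, at -0.62 (SE 0.395). Between the IP groups the smallest p towards HFD belonged to Acer3, an alkaline ceramidase, at 2.79 (SE 1.12, edgeR adjusted p = 0.391), and that towards CFD to Sphk2, a sphingosine kinase, at -2.97 (SE 0.932, edgeR adjusted p = 0.321). Of 7 genes of N-acetylaspartate and acetate use, 1 passed. Their medians were -0.21 between IP and input, with 3 of 7 towards IP, and 0.54 between the IP groups, with 4 of 7 towards HFD. Nat8l, the mainly neuronal enzyme that makes the substrate of Aspa, rose in IP by 0.84 (SE 0.218, edgeR adjusted p = 0.0727), from 201 ± 6.27 to 323 ± 25.03 CPM in CFD and from 122 ± 19.4 to 244 ± 81.1 CPM in HFD (SD, n = 3 each). Acss2, which activates acetate, had the smallest p towards input, at -0.72 (SE 0.576), and also the smallest p towards HFD between the IP groups, at 0.89 (SE 0.817), where Nat8l had -0.41 (SE 0.307). On library totals none of Psap, Smpd3, B4galnt1 and Nat8l passed, with values from 0.19 to 0.56. Each also lost its call without animal 489, 516, 517 or 556, at edgeR adjusted p-values up to 0.408, and B4galnt1 and Nat8l did so without animal 555 as well.

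Across the 12 libraries the 9 genes did not vary as a unit. Pearson's r of their log2 CPM, given as a description over libraries that share animals and scaling, had a median of -0.01 over 36 pairs, with 18 pairs above 0. The highest was 0.62 for Sptlc1 and Cers2, and the lowest were -0.74 for Sptlc2 and Galc and -0.72 for Fa2h and Aspa. Over the 66 pairs of oligodendrocyte markers the median was 0.25. The genes most like each of the 9 over the 12 libraries were Nars, Sike1 and Tmem263 for Ugt8a (r from 0.88 to 0.92), Fmn2, Prrc2a and Sik3 for Fa2h (0.93 to 0.94) and Mis18a, Taf1a and Cgn for Gal3st1 (0.90 to 0.92). They were Mrps36, Ccz1 and Ascc1 for Sptlc1 (0.92 to 0.93), Csf2ra, Capn5 and Farp2 for Sptlc2 (0.88 to 0.96), Lrrn1, Spire2 and Tmem57 for Cers2 (0.89 to 0.90) and Sema4b, Ido2 and Vstm2b for Degs1 (0.82 to 0.94). For Galc they were Polr2h, Ddx54 and Mrpl54 (0.93 to 0.94), and for Aspa Gas2, Smap1 and Zfp758 (0.89). No member of the 9 genes and no oligodendrocyte marker was among these 27 genes, which were picked as the highest values over all genes tested.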

How the data were processed

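The authors deposited 1 table with raw counts per gene symbol for the 12 libraries, FPKM values and counts scaled to a common library size, a signal not used here. The submitters' processing notes name STAR, HTSeq and mm10, without versions, and strand setting and annotation of the counting are not given in the sources used here. Sources differ on the library kit (NuGEN Ovation in the labels, TruSeq Ribo-Zero in the methods) and on the Tie2-Cre strain. The deposited log2 fold changes and p-values of the authors' own comparisons were not used.

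Genes with at least 10 counts in enough libraries and 15 in all (filterByExpr) were fitted in R 4.3.3 with the quasi-likelihood test of edgeR 4.0.16, TMM scaling and the means of the 4 groups, over 12 libraries. Benjamini-Hochberg adjustment ran over 14354 genes, and an adjusted p under 0.1 was called. The SE is the log2 fold change divided by the root of its F. The common biological coefficient of variation was 101%. Log2 CPM values had a prior count of 2, and CPM per kb used the gene length recovered from the deposited counts and FPKM values. DESeq2 1.42.0, limma 3.58.1 (voom with the animal as a random block), other scalings, no filter and leaving out each animal were alternatives. Gene ratios were compared by exact permutation tests, two-sided. The edgeR step was tested on simulated data.

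IP and input of an animal share its number, and so come from the same animal. Correlations of their deviations from the group means were 0.00641 to 0.190 (median 0.0351), against a median of -0.00984 between different animals. No 2 libraries of a group agreed within sampling noise. The main edgeR fit and DESeq2 had no term for the animal. Their p-values measure the spread between libraries within groups, and treat IP and input of an animal as independent. Fits with the animal as a block are given below, and the exact permutation tests of IP against input kept the pairs. CPM values are shares of counted reads, and low counts carry counting error beside it.

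The members and all gene lists were chosen with earlier results of these data known. All 9 members are named. Other pathway genes are named where called, or where they had the smallest p of their list in a direction between the IP groups or between IP and input. The 3 genes with the highest Pearson's r are named for each member. Promoter windows and positions are from RefSeq (GRCm38.p6).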

Additional observations from a re-analysis of the deposited data

Results flagged for a closer look

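The log2 ratio of IP to input of Gal3st1 pointed down in all 3 CFD animals and up in all 3 HFD animals, with means of -1.77 ± 0.828 and 1.71 ± 1.79 (SD, n = 3 each), a difference of 3.48. The interaction of diet and fraction, which tests this difference, was 4.25 (SE 2.3, edgeR unadjusted p of 0.0772, adjusted p of 0.896). With animal 517 left out, whose IP held 1030 counts of Gal3st1, it was 2.72 with an unadjusted p of 0.411 in the edgeR test.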

How the results depend on the processing

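For the 9 genes, 54 log2 fold changes were refitted. Of 360 values under other settings 20 changed sign, and of 324 with 1 animal left out 36 did. RLE scaling, no filter, DESeq2, fitting only the groups compared and leaving out Rn45s and Lars2 turned none of them. The cause of the changes was not tested.

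On library totals without TMM, all genes shifted by 0.56 between the IP groups, -0.83 and -0.42 for IP against input in CFD and HFD, -0.62 over both diets, 0.16 between the inputs and 0.41 for the interaction. Between the IP groups, Fa2h and Aspa became 0.33. For IP against input, in CFD Sptlc2 became -0.74, Cers2 -0.48 and Galc -0.011; in HFD Ugt8a -0.39 and Sptlc2 -0.027; over both diets Gal3st1 -0.54, Sptlc2 -0.39, Cers2 -0.16 and Galc -0.26. Genes called became 244 (237 higher, 7 lower) between the IP groups, 1014 (17 and 997) for IP against input in CFD, with 1 of the 9 genes (Ugt8a), and 1139 (28 and 1111) over both diets. The counts as reported were 8 (3 and 5), 27 (25 and 2) and 337 (277 and 60).

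With the animal as a fixed replicate block, Cers2 in CFD became -0.057, Sptlc2 in HFD -0.089, Degs1 in HFD 0.14, Gal3st1 over both diets -0.43, Sptlc2 over both diets -0.027 and the interaction of Sptlc2 -0.13. Fa2h over both diets kept its call at 1.21 (edgeR adjusted p = 0.0212), and genes called were 139 in CFD, 24 in HFD and 451 over both diets. With the animal as a random replicate block (limma), Aspa between the IP groups became 0.30, Degs1 between the inputs -0.18 and Galc there 0.0030, and 5 genes were called between the IP groups. The block changed no other call of the 9 genes.

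In the order IP groups, CFD, HFD, both diets, inputs and interaction, genes called were 770, 816, 160, 996, 31 and 121 with DESeq2, and 219, 312, 79, 730, 3 and 44 without a filter. DESeq2 called 1 of the 9 genes between the IP groups (Gal3st1), 1 in CFD (Fa2h) and 2 over both diets (Fa2h and Aspa). An adjusted p under 0.05 left 2 genes between the IP groups, 3 in CFD and 106 over both diets. Fitting only the groups compared gave 3, 14 and 0 in the first 3 comparisons. Leaving out Rn45s and Lars2 gave 5 between the IP groups and 0 in HFD.

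With 1 animal left out, genes called ran from 1 to 20 between the IP groups, 2 to 52 in CFD, 0 to 35 in HFD, 7 to 430 over both diets and 0 to 1 for the inputs and the interaction, and members called over both diets from 0 to 1. Between the IP groups, Fa2h ran from -0.42 to 0.087, Sptlc2 from -0.48 to 1.36, Cers2 from -0.33 to 0.85, Degs1 from -0.14 to 0.71 and Aspa from -0.68 to 0.99. In CFD, Sptlc2 ran from -0.42 to 0.98, Cers2 from -0.48 to 0.82 and Degs1 from -0.92 to 0.51. In HFD, Ugt8a ran from -0.058 to 0.067, Sptlc2 from -1.17 to 1.22, Degs1 from -0.48 to 0.27 and Galc from -0.69 to 0.37. Over both diets, Gal3st1 ran from -0.67 to 0.47, Sptlc1 from -0.62 to 0.17, Sptlc2 from -0.53 to 0.74, Degs1 from -0.48 to 0.23 and Galc from -0.050 to 0.64. Between the inputs, Ugt8a ran from -0.59 to 0.32, Cers2 from -0.41 to 0.13 and Degs1 from -0.42 to 0.42. The interaction ran from -0.014 to 0.34 for Fa2h, -1.26 to 1.13 for Sptlc2, -0.22 to 1.09 for Cers2, -0.56 to 0.88 for Degs1 and -1.08 to 0.71 for Aspa. Galc over Ugt8a ran from -0.86 to 1.31 for IP against input and -1.3 to 0.91 between the inputs, Fa2h over Ugt8a from -0.73 to 0.17 between the inputs, and Sptlc2 over Sptlc1 from -0.44 to 1.52 for IP against input and -3.2 to 0.22 between the IP groups.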
